A study of Nematostella vectensis with 9 samples.

Results

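Gene expression was compared between Nematostella vectensis embryos that had received RNA encoding dominant negative NvTCF (dnTCF) and embryos that had received dextran. The comparison used the 6 libraries whose titles name these treatments, 3 per group, out of 9 libraries in the series. Nematostella, the starlet sea anemone, is an anthozoan cnidarian. Its embryos were raised at 17 °C in diluted seawater and RNA was taken from all of them 24 h after fertilization. The dnTCF embryos carried injected RNA, whereas the control embryos received dextran and no RNA. An effect of the dominant negative protein and an effect of injected RNA as such cannot be told apart in this design. The labels give neither the amount injected, nor the number of embryos per library, nor which part of NvTCF the injected form lacks. They name the source only as animal tissue. In such bulk samples, fewer cells of a type and less RNA per cell cannot be told apart.

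TCF proteins bind DNA at target genes of the canonical Wnt pathway. When Wnt ligands bind their receptors, β-catenin escapes degradation, enters the nucleus and acts with TCF to switch these genes on. Dominant negative forms of TCF occupy the same sites without activating them. In Nematostella, β-catenin signalling is known for its part in setting aside the future inner tissue of the embryo and in patterning the oral side. The comparison asks which transcripts depend on this signalling 24 h after fertilization.

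Reads were counted on JGI Nemve1 gene models, which the files list by number and prediction name. No gene name could be joined to these numbers, so models are described here by number, level and scaffold, and without a known function. For the same reason the transcript of NvTCF itself, other genes of the Wnt pathway and markers of embryonic cell types were not analysed here. Counts on gene models were 5994290, 1936858 and 4502810 in the dnTCF libraries, and 5557005, 1948761 and 3101012 in the dextran libraries. Of 21946 models with a count in the series, 21376 had a count in these 6 libraries and 14127 had one in every library. The share of counts without an assigned sequence was 41.1%, 40.3% and 39.6% in the dnTCF libraries against 49.2%, 57.1% and 87.8% in the dextran libraries. The dnTCF libraries all lay below the dextran libraries, with an exact two-sided permutation p of 0.1, the smallest that 3 against 3 can give, and an adjusted p of 0.467 over 7 measures of whole libraries. For the other 6 measures, which cover ribosomal and mitochondrial counts, models detected at equal depth and the share taken by the most abundant models, the groups overlapped.

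The replicates of a group were not uniformly closer to each other than to the other group. Between dnTCF replicates 1 and 3, 8.58% of the 13559 tested models differed at least 2-fold, and between dnTCF replicates 1 and 2, 21.2% did. Among dextran libraries the share was 10.9% between replicates 1 and 2, 20.7% between replicates 2 and 3 and 26.5% between replicates 1 and 3. Across the groups it ran from 9.34% for dnTCF replicate 3 and dextran replicate 1 to 29.1% for dnTCF replicate 2 and dextran replicate 3. Dextran replicate 3 differed from each of the other 5 libraries at 20.7% of models or more. The spread of a gene model between replicates, as edgeR's biological coefficient of variation fitted in each group alone, was 28.8% for dnTCF and 37.1% for dextran. For dextran it was 22.4% without replicate 3, 35.0% without replicate 1 and 47.9% without replicate 2, each from 2 libraries. Which group was the more variable thus depended on the libraries kept. Without dnTCF replicate 3 the dnTCF value was 36.4%.

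**Figure D1:**
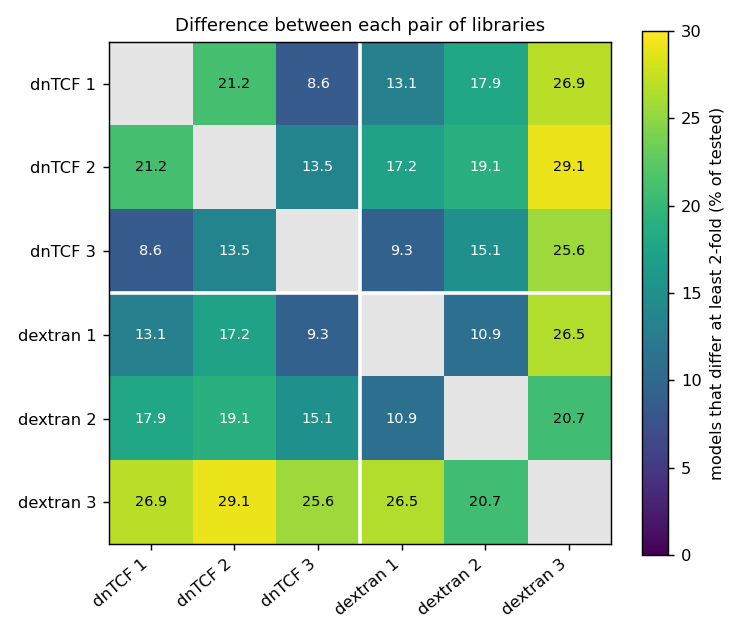
Share of the 13559 tested gene models that differed at least 2-fold between each pair of the 6 libraries, in percent, with libraries on both axes and the white lines separating dnTCF from dextran. The pairs with dextran 3 run from 20.7% to 29.1%, and the dnTCF 3 and dextran 1 pair differs at only 9.3% of models.

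Whether any gene model was called different between dnTCF and dextran embryos depended on the tool, the filter and the libraries in the fit. Of 13559 tested models, 0 (0%) passed edgeR's quasi-likelihood test at a Benjamini-Hochberg adjusted p under 0.05, and the lowest adjusted p was 0.329. At an unadjusted p under 0.05, 264 models (1.95%) were higher and 398 models (2.94%) were lower with dnTCF. Together they made up 4.88% of tested models, where p-values of unchanged models would give 5%. This closeness to 5% was not stable over the fits. Such a p was found for 1191 of 12841 models with only the 6 compared libraries, and for 430 of 14144 without dextran replicate 2. By limma-voom 0 models passed adjustment, while 284 higher models and 407 lower models had an unadjusted p under 0.05. DESeq2's Wald test called 39 models (0.288%) higher and 52 models (0.384%) lower. The number and balance of the DESeq2 calls depended on single libraries. There were 109 higher and 77 lower without dextran replicate 1, and 5 higher and 15 lower without dnTCF replicate 1. Without dextran replicate 3 there were 11 higher and 38 lower. With any other single dnTCF or dextran library left out, lower calls also outnumbered higher ones. The 39 higher and 52 lower models all kept their sign without dextran replicate 1 and without dextran replicate 3. The p-values set a difference against the spread between samples that the series' design text calls biological replicates. That spread was pooled over all 9 libraries of the series, or over those left in a fit.

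For most models the measured difference was small. The log2 fold change of dnTCF over dextran was within 1 in either direction for 12080 models, or 89.1%, and its median over all tested models was 0.01, with quartiles of -0.28 and 0.26. The median standard error was 0.46 on the same log2 scale. The error depended on level. Levels are given as CPM, read counts scaled by library size with edgeR's TMM method, and models are classed by their mean over the 6 libraries. Among 4273 models with 1 to 10 CPM the median standard error of the log2 fold change was 0.67, among 7324 models with 10 to 100 CPM it was 0.40, and among 1946 models with 100 CPM or more it was 0.35. The share at an unadjusted p under 0.05 hardly varied over these classes, at 5.06%, 4.85% and 4.62%. In the highest class 26 models were higher and 64 lower at that level of p.

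**Figure D2:**
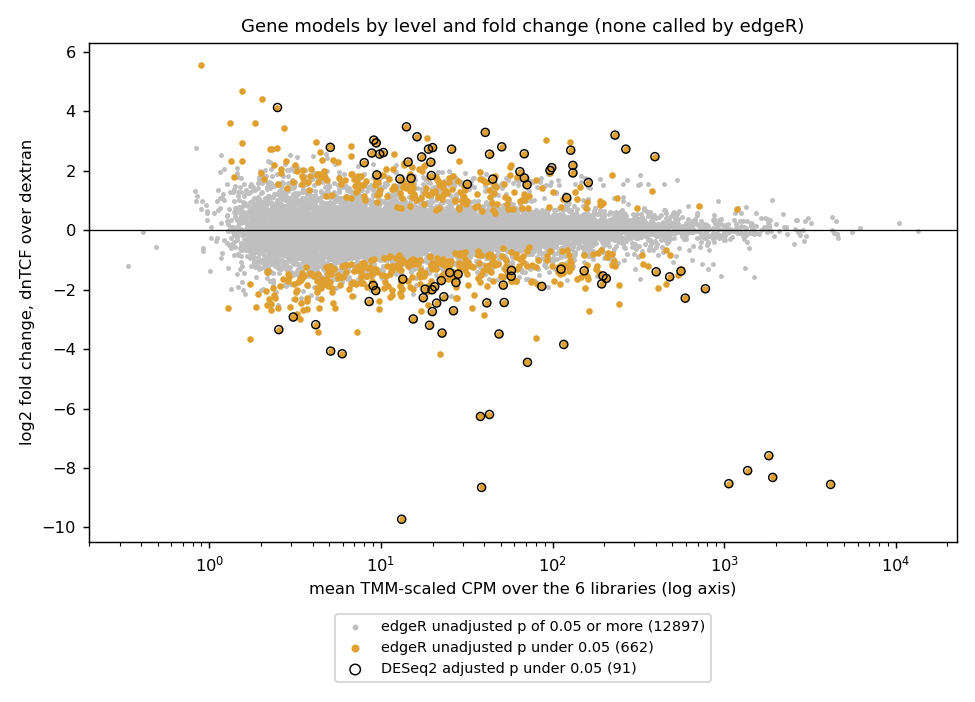
Each point is a gene model, with its mean level over the 6 libraries on a log axis (TMM-scaled CPM) and the log2 fold change of dnTCF over dextran on the vertical axis. The 662 models at an unadjusted edgeR p under 0.05 are in orange and the 91 models called by DESeq2 are ringed. Below a log2 fold change of -5 lie 9 models, all with more than 10 CPM on average, and above 5 lies a single model under 1 CPM.

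The 2 models with the smallest edgeR p in each direction are described in full. Only models averaging 1 CPM or more, and whose libraries did not overlap between the groups, were eligible. Non-overlap was thus a condition of their choice. Model 194914 stood at 96.2, 116 and 140 CPM in the dnTCF libraries, against 31.7, 12.4 and 13.9 CPM in the dextran libraries. Even the lowest dnTCF library was above the highest dextran library, which was replicate 1. The mean was 117 ± 22.0 CPM with dnTCF and 19.3 ± 10.7 CPM with dextran (SD, n = 3 each), a ratio of 6.07. The log2 fold change was 2.58 (SE 0.395, edgeR adjusted p = 0.329, DESeq2 adjusted p = 1.37e-06). The model is predicted on scaffold 444, where the other 11 tested models had a median log2 fold change of -0.02.

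Model 212994, on scaffold 167, stood at 26.5, 28.8 and 23.1 CPM in the dnTCF libraries. In the dextran libraries it stood at 4.41, 0.994 and 0.680 CPM, on 27, 2 and 2 counts. It was even among dnTCF embryos and near the limit of detection in dextran replicates 2 and 3. The log2 fold change was 3.48 (SE 0.579, edgeR adjusted p = 0.335, DESeq2 adjusted p = 4.93e-06). Its size depended on dextran replicate 1, the only control library with more than a few counts, and was 4.94 without it. In the fit that took the unassigned share as covariate it was 2.48. The groups did not overlap in that share, so that fit cannot fully separate it from treatment.

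Model 246365, on scaffold 213, stood at 8.99, 16.8 and 13.2 CPM in the dnTCF libraries and at 56.8, 101 and 51.3 CPM in the dextran libraries. Every dextran library held more than 3 times the highest dnTCF value. The mean was 12.99 ± 3.93 CPM with dnTCF and 69.8 ± 27.5 CPM with dextran (SD, n = 3 each), and the log2 fold change was -2.44 (SE 0.375, edgeR adjusted p = 0.329, DESeq2 adjusted p = 3.96e-06). Of 26 other tested models on its scaffold, 1 was also called lower by DESeq2. That neighbour stood at 10.03, 21.2 and 18.3 CPM with dnTCF against 79.2, 129 and 55.7 CPM with dextran (log2 fold change -2.43, SE 0.599, edgeR adjusted p = 0.422). In both models the highest dextran value was in replicate 2 and the lowest in replicate 3. The median log2 fold change of the 26 other models was 0.00.

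Model 208035, on scaffold 87, stood at 4.94, 6.52 and 9.55 CPM with dnTCF and at 60.6, 58.2 and 19.0 CPM with dextran. Dextran replicate 3 was much closer to the dnTCF libraries than the other controls were. The log2 fold change was -2.71 (SE 0.505, edgeR adjusted p = 0.335, DESeq2 adjusted p = 0.000277), and in the fit that took the unassigned share as covariate it was -3.70 (edgeR adjusted p = 0.0869).

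**Figure D3:**
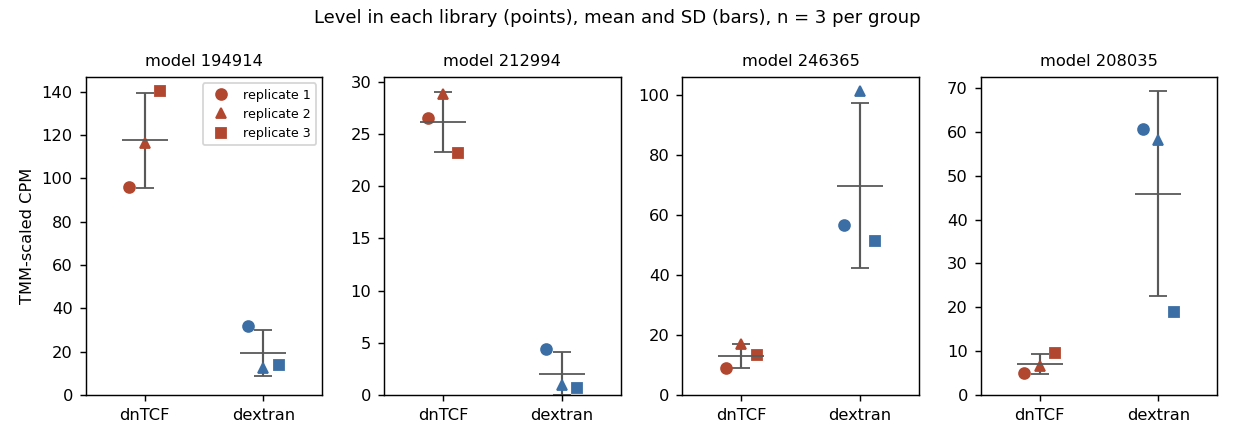
Level of the 4 named gene models in TMM-scaled CPM, with dnTCF left of dextran in each panel. Points are single libraries, the horizontal bar is the mean of 3 and the whiskers are the SD. Models 194914 and 212994 are higher in all 3 dnTCF libraries, and models 246365 and 208035 are higher in all 3 dextran libraries.

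The direction of single libraries was also counted without a test. In 1014 models (7.48%) all dnTCF libraries lay above all dextran libraries, and in 937 models (6.91%) they lay below. With a difference of group means of at least 2-fold as well, 383 models (2.82%) were higher and 463 (3.41%) lower. Among models with 100 CPM or more the balance depended on the size of the difference, with 192 higher against 92 lower by non-overlap alone, and 21 higher against 44 lower when at least 2-fold.

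The 39 models that DESeq2 called higher with dnTCF were described as a group. None of them was called by edgeR, where their adjusted p-values ran from 0.329 to 0.590, although all 39 had an unadjusted edgeR p under 0.05. Their summed level was 4613, 4162 and 3720 CPM in the dnTCF libraries, and 1358, 715 and 509 CPM in dextran replicates 1, 2 and 3. The dnTCF libraries were close to each other, and the controls were spread more widely. Levels differed less than 2-fold among the dnTCF libraries for 26 of the 39 models, and among the dextran libraries for 8. The share over all tested models was not counted. The gap between the groups and the evenness of the dnTCF libraries follow in part from how these models were chosen. The controls were also low, with medians of 12.9, 7.46 and 4.76 CPM. Over all tested models the median SD of log2(CPM + 0.5) among dextran libraries was 0.577 at 1 to 10 CPM and 0.338 at 10 to 100 CPM. Dextran replicate 1 was the highest control in 33 of the 39, or 84.6%, whereas it was the highest in 46.1% of all tested models with a positive log2 fold change. In 15 models, a division made after the values were seen, it held at least 2 times the level of each other control. For the summed level the order of the controls was the reverse of their order in unassigned share. This order did not hold for every model: the lowest control was dextran replicate 3 in 20 of the 39, dextran replicate 2 in 18 and dextran replicate 1 in 1. The groups did not overlap in the unassigned share, so a fit with it as a covariate cannot fully separate it from treatment. In that fit the log2 fold change stayed positive in all 39. Its median was 2.04 with the covariate and 2.73 without it over those 15 models, and 1.74 with it and 2.15 without it over the other 24. An unadjusted edgeR p under 0.05 was found with the covariate for 10 of the 15 and for 18 of the 24. Without dextran replicate 3, DESeq2 still called 11 of the 39.

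The 52 models called lower by DESeq2 were divided by the level of dextran replicate 3 against the other controls. The division was made after their values were seen and is given without a test. In 39 of them dextran replicate 3 was less than 3 times the higher of the other controls. Their summed level was 2127, 1957 and 1978 CPM in the dnTCF libraries, and 6380, 7856 and 6042 CPM in dextran replicates 1, 2 and 3. The gap between the groups and the closeness of the control sums follow in part from how these models were chosen. In single models the ratio of the highest to the lowest control had a median of 1.79. The median log2 fold change over these 39 models was -1.97 in edgeR's fit, with a range from -4.16 to -1.31. It was -2.05 without dextran replicate 3, -1.97 without dextran replicate 1 and -2.04 when the unassigned share was a covariate. All 39 models were lower, at an unadjusted edgeR p under 0.05, in each of these 3 fits, and 0 passed adjustment in any of them. These fits share most or all libraries with the fit that chose the models, so they are no independent test. The fit with the covariate also cannot fully separate the unassigned share from treatment. All 52 lower calls already had an unadjusted p under 0.05 in edgeR's fit on all 9 libraries. Without both dextran replicate 3 and BMP2/4 morpholino replicate 1, the most divergent library of the third group in the fit, edgeR called 20 of the 39 at an adjusted p under 0.05.

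In the other 13 models dextran replicate 3 held at least 3 times the level of each other control. Their summed level was 78.5, 153 and 86.2 CPM in the dnTCF libraries, against 1589, 5722 and 56862 CPM in dextran replicates 1, 2 and 3. For these sums the ratio of the highest to the lowest control exceeded the ratio of the lowest control to any dnTCF library. The order of the controls was that of the unassigned share, but the place of dextran replicate 3 as the highest was a condition of this division. The median log2 fold change was -7.59, and -6.53 with the 1 model without a dnTCF count set at its bound. It was -5.09 without dextran replicate 3. In that fit all 13 stayed lower, 11 had an unadjusted edgeR p under 0.05 and 0 passed adjustment. DESeq2 without dextran replicate 3 still called 7 of the 13. With BMP2/4 morpholino replicate 1 left out as well, edgeR called 6 of the 13 at an adjusted p under 0.05. When the unassigned share was a covariate, in a fit that cannot fully separate it from treatment, the median was -3.05 and 12 of the 13 remained below 0. The model without a count in any dnTCF library had 18, 23 and 191 counts in the dextran libraries. Against a floor of 3 counts over the dnTCF group it was at least 92.4-fold lower with dnTCF, and at least 22.2-fold lower when dextran replicate 3 was left out.

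**Figure D4:**
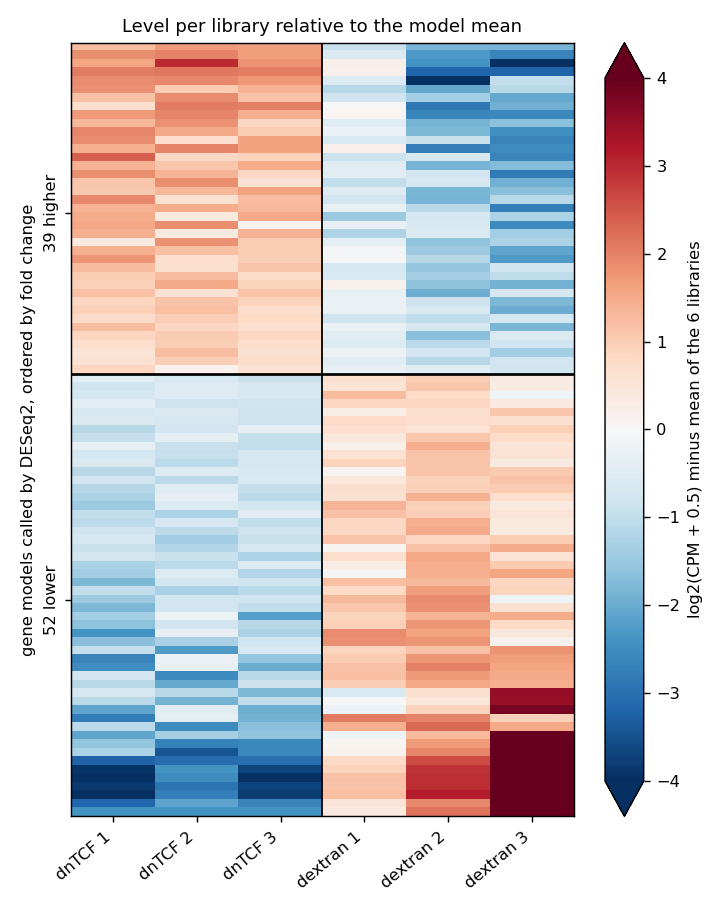
Level of the 91 gene models called by DESeq2 in each library, as log2(CPM + 0.5) minus the model's mean over the 6 libraries, with dnTCF libraries left of dextran libraries and models ordered by fold change. Among the 39 higher models dextran 1 is the highest control in 33. Of the 52 lower models, 26 vary less than 2-fold across the controls, a share that was not counted over all tested models. The models at the bottom stand apart in dextran 3.

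The largest fitted differences were in models that were high in dextran replicate 3. A log2 fold change of -5 or lower was found for 9 models, and all 9 were highest, among controls, in dextran replicate 3. Together they made up 51.2, 108 and 58.4 CPM in the dnTCF libraries, against 1513, 5554 and 55651 CPM in the dextran libraries. A log2 fold change of 5 or higher was found for 1 model, which averaged 0.891 CPM. At a log2 fold change of 3 or more in size there were 14 higher models and 23 lower ones, and 18 of the 23 were highest in dextran replicate 3 among the controls. This library was the highest control in 49.1% of all tested models with a negative log2 fold change. Among the 398 lower models at an unadjusted edgeR p under 0.05 it was the highest in 59.0%. A high value in a single control also enlarges the fold change by which such models were picked.

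Detection in a single group was counted over all 21376 models with a count in these 6 libraries, tested or not. Depth was not equalised between libraries for this count, and its part in the result was not tested. A count in all 3 dnTCF libraries and in no dextran library was found for 43 models, with a median of 5 counts summed over the dnTCF libraries and at most 16. The reverse held for 20 models, with a median of 6 counts summed over the dextran libraries and at most 232. In the first set no model reached 10 counts in each dnTCF library, and in the second set only the model described above reached 10 counts in each dextran library. The next highest sum in the second set was 43 counts.

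The scaffolds of the models called by DESeq2 were counted without a test. Scaffold numbers were read from the prediction names and could be checked against the model numbers for 12281 of the tested models. Of the calls, 80 were on such models and they lay on 60 scaffolds, with a single call on 43 of these. Scaffold 129 held 3 lower calls and no higher one among 38 tested models, and scaffold 61 held 3 lower calls among 60. Scaffold 4 held 2 higher calls and 1 lower call among 179. On scaffold 13326 both of the 2 tested models were called lower, and scaffolds 137 and 213 each held 2 lower calls among 27. Over the 191 scaffolds with at least 20 tested models, the median log2 fold change of a scaffold ran from -0.21 to 0.30. None of these scaffolds was displaced as a whole by as much as the models named above.

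The count of differing models depended on which libraries entered the fit. With only the 6 compared libraries, edgeR called 0 models, while the lists at an unadjusted p under 0.05 held 476 higher and 715 lower models. The same models largely recurred, since 240 of the 264 higher and 376 of the 398 lower models of the 9-library fit were also in these lists. Without dextran replicate 1, edgeR called 8 models higher and 0 lower, and the unadjusted counts turned to 561 higher and 450 lower. Without dextran replicate 2 they were 147 higher and 283 lower, and without dnTCF replicate 3 they were 189 higher and 248 lower. Limma-voom with library quality weights gave weights of 3.27 to dnTCF replicate 3 and 3.63 to dextran replicate 2, and of 0.532 to dextran replicate 3. It called 124 models higher and 223 lower at an adjusted p under 0.05. Those lists held 36 of the 39 higher and 47 of the 52 lower DESeq2 calls, which made up 29.0% and 21.1% of them.

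**Figure D5:**
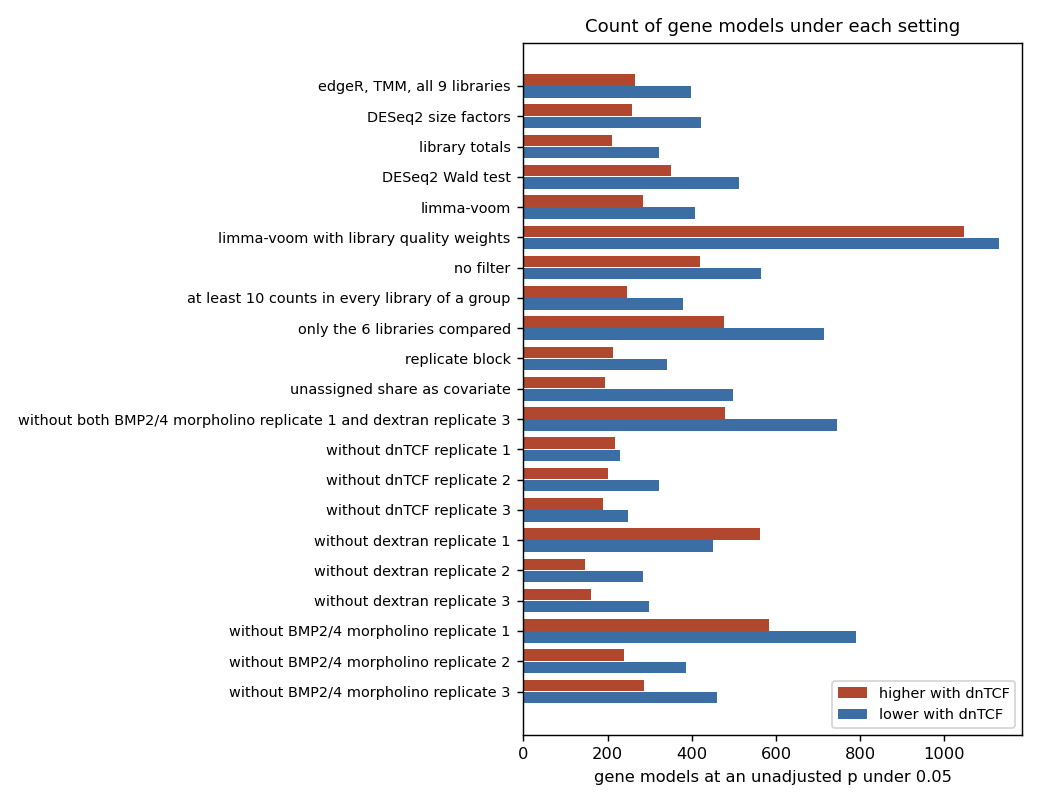
Number of gene models at an unadjusted p under 0.05 under each setting, with bars for models higher and lower with dnTCF. Lower models outnumber higher ones under every setting shown except without dextran replicate 1, where 561 are higher and 450 lower.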

How the data were processed

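Poly-A enriched RNA from injected embryos was sequenced as single-end reads of 50 bp, per the labels' protocols. The authors deposited a table for each library that lists unnormalized read counts by reference sequence. The submitters' processing notes name FastQC and Bowtie2 2.2.0. The sources used here give neither the counting program nor its strand setting nor its treatment of reads that match several models. Near-identical or overlapping models may therefore share reads.

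Models absent from a table were entered as 0. The 18S, 28S, mitochondrial and unassigned (*) rows were left out of the fit, the last of which held 39.6% to 87.8% of a library's counts. Of 21946 model numbers, 0 matched any of 38762 rows of the RefSeq table of assembly jaNemVect1.1, so the gene lists drawn up for the Wnt pathway, germ layers, axes and cell types were not tested.

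Counts were fitted with edgeR 4.0.16 in R 4.3.3 (filterByExpr, TMM, quasi-likelihood F-test) on all 9 libraries with 1 mean per group and 6 residual degrees of freedom. Adjustment over all tested models used the Benjamini-Hochberg method. Standard errors were derived from the F statistic. Named models were the 2 with the smallest p per direction, with no overlap and a mean of at least 1 CPM, since edgeR's test on all 9 libraries called none. Alternatives used DESeq2 1.42.0, limma 3.58.1, other scalings, filters, covariates and left-out libraries. Whole-library measures were set against each other by exact two-sided permutation (scipy 1.17.1). The fits were also run on simulated counts, drawn with the same spread in all libraries and so without a divergent library. That run cannot show how the fits behave with libraries as unequal as these. The comparison, rules and alternatives were chosen with earlier results of these data known.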

Additional observations from a re-analysis of the deposited data

How the results depend on the processing

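The calls by DESeq2 on other sets of libraries and the non-overlap under other scalings were added after seeing the data. The count of 0 edgeR calls also held under DESeq2 size factors, library totals, a minimum of 10 counts, the 6-library fit, the unassigned share as a covariate, limma-voom and a threshold of 0.01. It became 91 by DESeq2, 347 by limma-voom with quality weights, 18 (5 higher, 13 lower) without a filter and 42 without both divergent libraries (dextran replicate 3 and BMP2/4 morpholino replicate 1). The 662 models at an unadjusted p under 0.05 became 1191 with only the 6 libraries, 2175 with quality weights and 1223 without both divergent libraries. DESeq2's 91 calls became 215 on the 6 libraries and 203 without both divergent ones. The causes were not tested. Leaving out each library in turn gave 0 to 8 edgeR calls, 430 to 1373 models with unadjusted p below 0.05 (1373 without BMP2/4 morpholino replicate 1) and, by DESeq2 without each dnTCF or dextran library, 20 to 186 calls (20 without dnTCF replicate 1, 186 without dextran replicate 1).

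The samples share replicate numbers, which no label ties to a batch. Deviations from the group means correlated at -0.12, 0.16 and -0.09 between dnTCF and dextran libraries of equal number, so the numbers were not taken as pairs. With the replicate block edgeR called 0 models, and 555 had an unadjusted p under 0.05. The 4 named models kept their sign under all 20 alternatives, with log2 fold changes from 2.09 to 3.15 for model 194914, 2.48 to 4.94 for model 212994, -2.76 to -2.07 for model 246365 and -3.70 to -2.45 for model 208035. Each was called under 4 or 5 of these. Differences of whole-library measures (dnTCF minus dextran) without single libraries changed sign for models detected at equal depth (-137 with all libraries, -340 to 162 without 1), for the share of the top 10 models (-0.789 percentage points, -1.41 to 0.185 without 1 library) and for that of the top 100 (-0.871 points, -2.36 to 0.672 without 1 library). The median standard error of the log2 fold change was 1.10 for the 16 models under 1 CPM and 0.67 for those of 1 to 10 CPM, above that of the higher classes, and the part of depth in this was not tested.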
